A study of Drosophila melanogaster with 4 samples.

Results

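Cone cells (CCs, also called Semper cells) of the fly retina were compared between the adult and the pupal stage, with 1 RNA library at each stage, which makes 2 of the 4 libraries of the study. The other libraries were of larval CCs and adult photoreceptors (PRs), and their levels are given here only beside those of the compared pair. Adult CCs came from yw67;sp/CyO;TM2/TM6B flies of 1 to 2 days after eclosion, whose dissociated retinas were stained for Fasciclin 3 (Fas3), an adhesion molecule on CCs, and with the antibody 22C10, which binds the Futsch protein of PRs and interommatidial bristles. Pupal CCs were taken 25 h after puparium formation as GFP-positive cells of sev-; prosPSG-GFP; TM2/TM6B animals, in which GFP is driven by an enhancer of pros and the R7 photoreceptor is missing. Larval CCs were sorted like pupal CCs, and adult PRs as RFP-positive, GFP-negative cells of prosPSG-GFP retinas. Each library pooled the eyes of 45 to 75 animals, and antennae, brain and lamina had been removed. Stage, genotype, sorting method and library therefore all change together between adult and pupal CCs, and their parts in a difference cannot be told apart.

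A quartet of CCs sits above the photoreceptors of every facet of the compound eye. In the pupa they spread into a plate, join the primary pigment cells and begin to secrete the corneal lens and the pseudocone below it, and their thin processes run down between the photoreceptors to feet at the retinal floor. In the adult they remain as long-lived cells that cap, wrap and support the photoreceptors, a role that has been likened to that of glia.

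Values were log2 levels of reads per gene after TMM normalization, a scaling between libraries by a trimmed mean of ratios, and a level of 0 means that the gene was listed at 0. The header of the values names no division by gene length, although the study also used reads per length in a filter, so levels are compared between libraries and not between genes. After the log2 was undone, a gene was called higher or lower in adult CCs if log2(value + 4) differed by 2 or more, which is 4-fold, and the higher library had 32 units or more. Differences below are adult minus pupal CCs on this log2(value + 4) scale, which understates the change of low genes. There were no replicates, so a call describes these 2 libraries and no p-value is given. In a sorted bulk sample, fewer cells of a type and less RNA per cell cannot be told apart.

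The rule called 966 of 14935 genes (6.47%) higher in adult CCs and 913 (6.11%) lower. Among the 6767 genes with 32 units or more in either library these were 14.3% and 13.5%. The columns summed to 3253600 units in adult CCs and 1827600 in pupal CCs, and the 10 most abundant genes held 20.2% and 6.27% of them. When both libraries were set to equal totals, 572 genes were higher and 1565 lower (3.83% and 10.5% of all genes), and all 572 were among the 966 and all 913 among the 1565. A scaling called equal medians here divided each library by its median ratio to the mean of all 4 libraries. It used the 5569 genes at 8 units or more in all 4, and gave 890 higher (5.96%) and 985 lower (6.6%). Equal totals moved the median difference of the 9948 genes at 8 units or more by -0.74, to -0.79 from the -0.05 of the deposited scale, and equal medians moved it by -0.13. Both medians are given for most lists by function or family below, since the direction of a list can depend on the scaling. Just inside the threshold stood IRSp53 with a difference of 2.002 and CG6650 with -2.001, and just outside it scyl with 1.996 and Cpsf73 with -1.997.

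The labels were checked on the genes behind the sorts and on markers of other eye cells. Fas3 was at 11.83 in adult CCs and 10.60 in pupal CCs, and ct, which encodes the Cut homeodomain protein of CCs, at 12.80 and 11.58. Neither passed the rule. Of all 7 CC markers, 4 were higher (retinin, Crys, sv and eya), 1 lower (pros) and 2 neither, with a median of 4.17 (3.34 with equal totals). The gene of the 22C10 antigen, futsch, fell to 6.58 in adult CCs, against 10.49 in pupal CCs. The pros gene, whose enhancer marked the pupal cells, fell to 4.28 in adult CCs, against 9.72 in pupal CCs and 10.43 in larval CCs. By antibody staining, the study found Pros protein in mature CCs. The receptor gene sev was at 6.95 in adult CCs and 4.28 in pupal CCs, a change that fell below the threshold with equal totals, and at 7.72 in larval CCs, which carry the sev mutation like pupal CCs.

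Markers of PRs moved in both directions. Of 30 PR markers, 6 were higher and 3 lower, and they summed to 7713 units in adult CCs and 6910 in pupal CCs, against 543220 in PRs. Their median difference was 1.32 (0.56 with equal totals). Arr2, ninaB, trp, trpl, rdgA and laza were higher in adult CCs, and Ggamma30A, elav and eys were lower. The opsin gene ninaE was at 1.39 in adult CCs and listed at 0 in pupal CCs. Arr2, the major arrestin gene, was at 7.92 in adult CCs and listed at 0 in pupal CCs, against 15.42 in PRs. Markers of neurons were mostly lower: 12 of 14 fell in adult CCs and none rose, and their sums were 1811 units in adult CCs and 15272 in pupal CCs. Of 12 bristle lineage markers, 5 were lower, with sums of 745 and 2986 units. The bristle list holds pros and futsch and the neuron list holds futsch. Both are genes behind the sorts, and both are counted among the falls. Hemocyte markers (2 higher and 2 lower of 18) summed to 2552 units in adult CCs and 2004 in pupal CCs. Of their defining genes, He was listed at 0 in both. Hml was at 7.23 in adult CCs and 6.68 in pupal CCs, and NimC1 at 5.13 and 3.67. Fat body markers summed to 174 and 298 units. Of 14 optic lobe glia markers, 3 were higher (Gs2, wrapper and ine) and 3 lower (repo, Eaat2 and Cyp4g15), or 2 and 4 with equal totals. They summed to 18145 units in adult CCs and 10290 in pupal CCs, and Gs2 alone had 13226 units of the adult sum. Of 22 muscle markers, 2 were higher (sls and Mef2) and none lower, with sums of 7998 and 3349 units. Of 19 pigment cell markers, 4 were higher and 1 lower, with sums of 101980 units in adult CCs and 1566 in pupal CCs, and Pdh alone had 94871 units of the adult sum. Of 5 primary pigment cell markers, 2 were lower (hbs and kirre), with sums of 306 and 1446 units. Tracheal markers (3 higher and 4 lower of 12) summed to 15864 units in adult CCs and 1877 in pupal CCs, and Gasp is among those that rose. By the same rule, 6.47% of all genes were higher and 6.11% lower. Whether any of these other cell types had a part in the differences below was not tested.

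**Figure D1:**
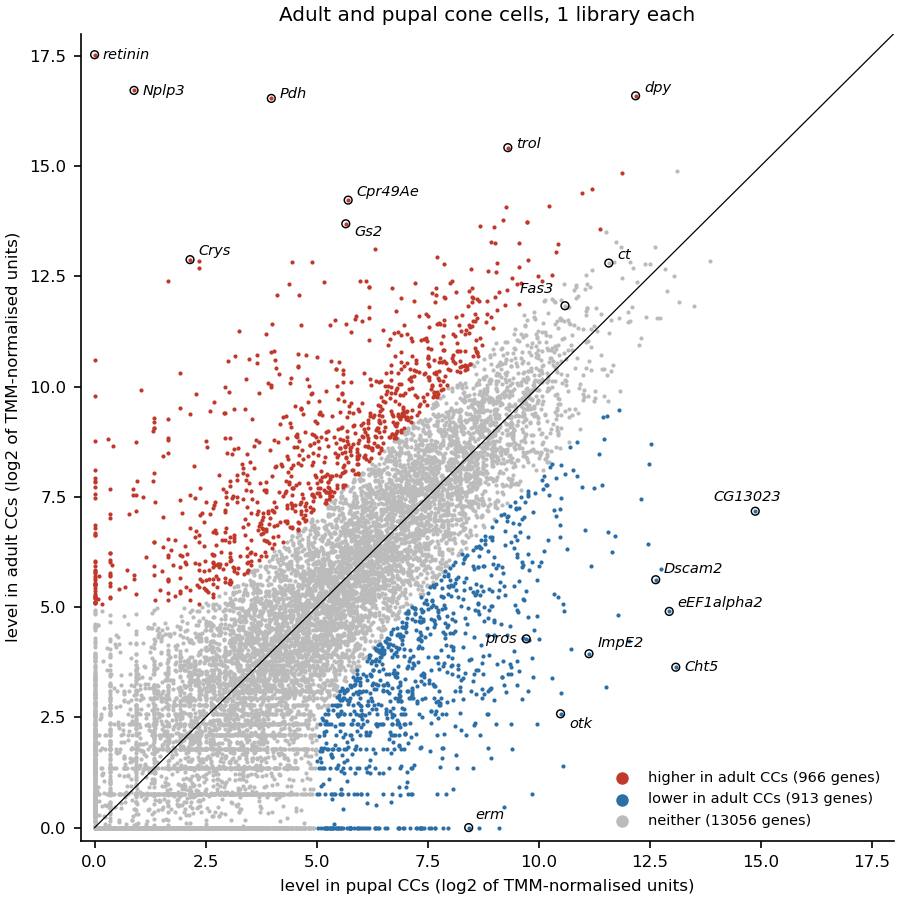
Level of each of 14935 genes in adult CCs (vertical axis) and pupal CCs (horizontal axis), in log2 of TMM-normalised units, with 1 library each; red genes were higher and blue genes lower in adult CCs by the 4-fold rule, and circles mark named genes. The lens gene retinin lies at 17.52 in adult CCs and at 0 in pupal CCs, whereas the chitinase gene Cht5 lies at 3.64 and 13.09. Near the diagonal lie Fas3 and ct, the 2 of 7 CC markers that did not pass the rule.

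Several genes of the lens and the cuticle were among the largest rises. The corneal lens gene retinin was at 17.52 in adult CCs and listed at 0 in pupal CCs. Crys, which encodes the lens protein Drosocrystallin, rose to 12.88 in adult CCs, against 2.15 in pupal CCs (difference 9.80). Both transcripts were also near 0 in larval CCs (1.84 and 0), so that among the CC stages they were abundant only in the adult. Pdh, a retinol dehydrogenase gene best known from pigment cells and one of their markers here, rose to 16.53 in adult CCs, against 3.98 in pupal CCs (difference 12.23), and was at 13.48 in PRs. Cpr49Ae and Cpr72Ec, which encode cuticle proteins with a chitin-binding domain, rose to 14.23 and 10.71 in adult CCs, against 5.71 and 3.65 in pupal CCs. Of the 12 listed lens and CC product genes, 5 were higher and 2 lower, with a median difference of 0.68 that came to 0.01 with equal totals, where 4 were higher and 4 lower.

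Some cuticle genes changed the other way. The uncharacterised gene CG13023, on the list of lens and CC products, fell to 7.17 in adult CCs, against 14.88 in pupal CCs (difference -7.67). Cpr72Ea, a neighbour by name of Cpr72Ec, fell to 2.36 in adult CCs, against 9.97 in pupal CCs. Cpr97Ea fell as well, to 3.05 in adult CCs, against 7.14 in pupal CCs. Of all 70 Cpr genes measured, 4 were higher (5.71%), 5 lower (7.14%) and 61 neither, shares close to those of all genes, and only 22 reached 8 units in either library. Ccp84Ag, another cuticle gene, chosen after its values were seen, was at 8.11 in adult CCs and listed at 0 in pupal CCs.

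Genes of the apical extracellular matrix changed in both directions with few members between. Many of these encode zona pellucida (ZP) domain proteins, which assemble into filaments that anchor epithelia to cuticle. Of 20 measured members, 6 were higher, 9 lower and 5 neither, with a median of -1.40 (-2.22 with equal totals, where 6 were higher and 11 lower). The giant ZP protein gene dpy (dumpy) rose to 16.59 in adult CCs, against 12.19 in pupal CCs (difference 4.41). CG17111, qsm (quasimodo) and cyr rose further, to 10.57, 11.39 and 8.20 in adult CCs, against 3.00, 4.64 and 2.25 in pupal CCs. In contrast, the integrin ligand gene tnc (tenectin) fell to 6.60 in adult CCs, against 11.71 in pupal CCs. The ZP genes zye and neo fell to 5.36 and 4.36 in adult CCs, against 9.72 and 8.83 in pupal CCs. Both zye and neo were listed at 0 in PRs.

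Chitin genes changed in both directions too, but most did not pass the rule, with 7 of 38 higher, 6 lower and 25 neither. Of the 38, 23 reached 32 units or more, and among all genes at that level 14.3% were higher and 13.5% lower. The median of the chitin list was 0.27 (-0.45 with equal totals, 7 higher and 8 lower). Cht5, which encodes a molting chitinase, had the largest fall of all genes, to 3.64 in adult CCs, against 13.09 in pupal CCs (difference -9.05). It was at 4.39 in larval CCs, so that its high level was seen at the pupal stage alone among the 4 libraries. Cda4, a chitin deacetylase gene, fell to 2.35 in adult CCs, against 6.85 in pupal CCs. The genes that rose encode mostly chitin-binding or chitinase-like proteins. The chitin-binding genes obst-E and Gasp (also a tracheal marker) rose to 8.04 and 12.39 in adult CCs, against 1.34 and 8.05 in pupal CCs. The chitinase-like growth factor gene Idgf6 rose to 10.93 in adult CCs, against 6.60 in pupal CCs. Mucin genes, a list made after the values were seen, had 0 of 19 higher and 5 lower. Their median was -1.05 (-1.52 with equal totals, 7 lower). The furthest fall was that of Muc12Ea, to 3.09 in adult CCs, against 7.76 in pupal CCs.

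On the basal side, some genes of the basement membrane rose while others fell. Of 23 measured members, 5 were higher and 7 lower, with a median of -0.92 (-1.70 with equal totals). The perlecan gene trol, a heparan sulfate proteoglycan of basement membranes, rose to 15.42 in adult CCs, against 9.31 in pupal CCs (difference 6.10). The lysyl oxidase gene Loxl2, whose product crosslinks matrix proteins, rose to 10.32 in adult CCs, against 1.93 in pupal CCs. LanB1, a laminin chain gene, rose to 11.51 in adult CCs, against 7.86 in pupal CCs. The partner chain gene LanA was at 5.83 in adult CCs and 6.79 in pupal CCs, and the collagen IV gene Col4a1 was at 7.22 and 7.73, so neither passed the rule. Matrix metalloproteinase genes and their inhibitor gene moved apart: Mmp2 fell to 4.94 in adult CCs, against 9.50 in pupal CCs. The inhibitor gene Timp rose to 8.63 in adult CCs, against 4.56 in pupal CCs. Mp, a multiplexin collagen gene, and Pxn, a peroxidasin gene that is also a hemocyte marker, fell to 4.00 and 2.94 in adult CCs, against 9.45 and 7.81 in pupal CCs.

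Genes of integrin adhesion were higher or did not pass the rule. Integrins link the basement membrane to actin through the kindlins and the complex of Ilk, PINCH and parvin. Of 19 members, 7 were higher, none lower and 12 neither, and the median was 0.96 (0.16 with equal totals, where 3 were higher and none lower). The kindlin genes Fit2 and Fit1 rose to 9.39 and 10.22 in adult CCs, against 4.70 and 7.52 in pupal CCs, although Fit1 fell short of the threshold with equal totals. Parvin and stck, the PINCH gene, rose to 9.17 and 9.68 in adult CCs, against 5.02 and 6.51 in pupal CCs. The integrin alpha chain genes mew and if rose to 8.02 and 7.85 in adult CCs, against 5.22 and 5.09 in pupal CCs, but not past the threshold with equal totals. Among tetraspanins, which are membrane organisers, 6 of 34 were higher and 2 lower, led by Tsp42Ee at 13.26 in adult CCs and 9.55 in pupal CCs. The tetraspanin median was 0.66 (0.10 with equal totals, 4 higher and 2 lower). By contrast, septate junction genes, which seal epithelia and glia, had 2 of 28 higher and none lower, and their median of 0.58 turned to -0.23 with equal totals, where none passed.

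Adhesion molecules of the cadherin and immunoglobulin families changed in both directions. Of 40, 5 were higher (12.5%) and 8 lower (20%), against 14.3% and 13.5% of all genes at 32 units or more, with a median of 0.27 that turned to -0.55 with equal totals. The nephrin-type genes rst, kirre and hbs, whose products sort interommatidial cells in the pupal eye and of which kirre and hbs are primary pigment cell markers, fell to 3.23, 3.18 and 7.54 in adult CCs, against 9.22, 7.15 and 10.24 in pupal CCs. The atypical cadherin gene stan (flamingo) of planar polarity fell to 6.25 in adult CCs, against 11.66 in pupal CCs. The immunoglobulin gene bdl (borderless) rose to 10.44 in adult CCs, against 4.58 in pupal CCs. Cad96Ca, a cadherin-like receptor kinase gene, and wrapper, known from midline glia, rose to 10.41 and 8.41 in adult CCs, against 5.43 and 5.46 in pupal CCs. The wrapper gene is also one of the optic lobe glia markers here.

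**Figure D2:**
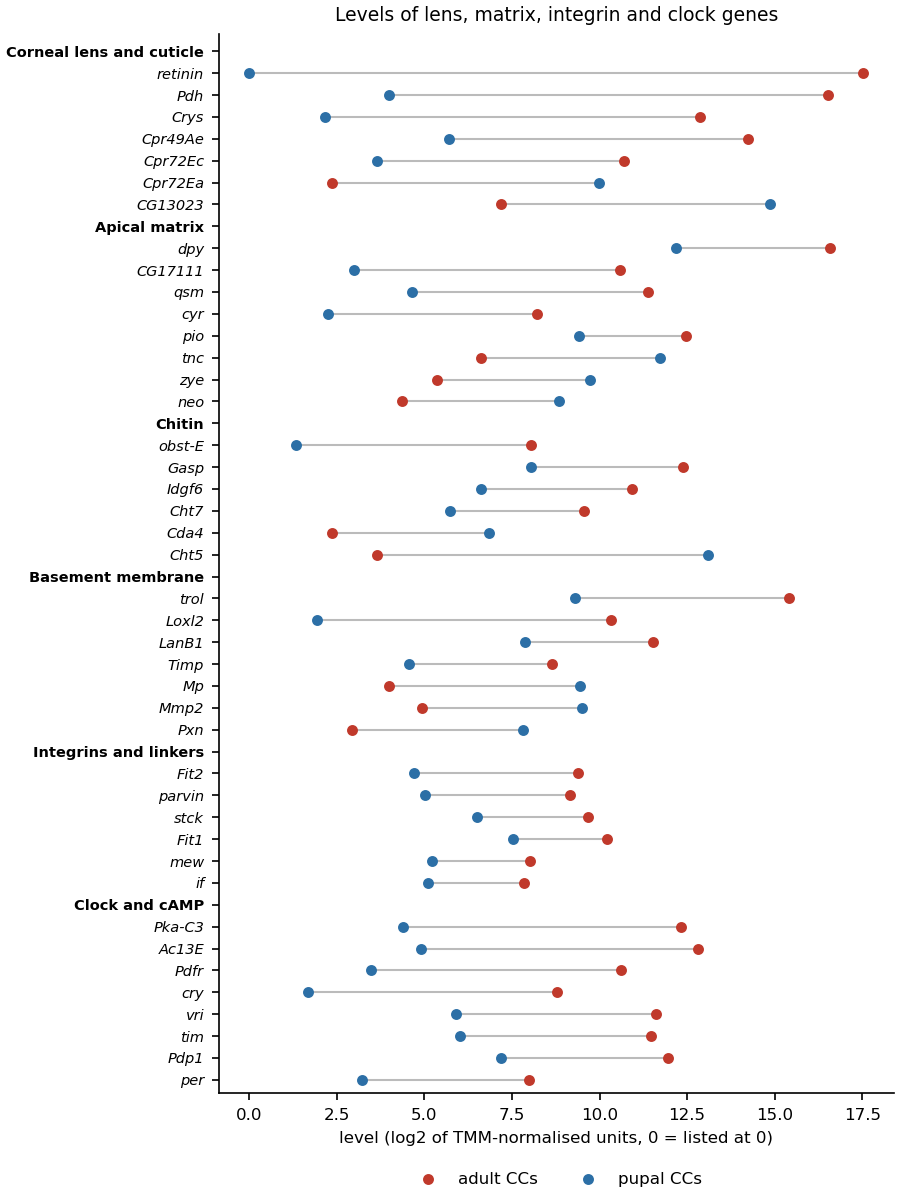
Level in adult CCs (red) and pupal CCs (blue) of named genes of the lens and cuticle, apical matrix, chitin, basement membrane, integrin adhesion, and clock and cAMP signalling, in log2 of TMM-normalised units with 1 library per stage. Lens, matrix and chitin groups hold genes that moved either way, such as Cpr72Ec (10.71 and 3.65) and Cpr72Ea (2.36 and 9.97), whereas the integrin and clock genes shown were all higher in adult CCs.

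The circadian clock had the largest share of members that rose of all lists fixed by function. In flies the clock runs as a feedback loop in which Clk and cyc drive per, tim, vri and Pdp1, and peripheral clocks run in the eye. Of 11 measured genes, 8 were higher and none lower on both scales, and the median was 4.28 (3.56 with equal totals). The light-dependent partner gene tim rose to 11.48 in adult CCs, against 6.02 in pupal CCs, and per rose to 7.98, against 3.20. The feedback genes vri and Pdp1 rose to 11.61 and 11.94 in adult CCs, against 5.89 and 7.19 in pupal CCs. The blue light receptor gene cry rose to 8.78 in adult CCs, against 1.66 in pupal CCs. The activator gene Clk, chosen after its values were seen, rose to 9.63 in adult CCs, against 5.78 in pupal CCs. Its partner cyc was at 7.62 and 7.05. Clock transcripts were also abundant in adult PRs, at 13.93 for tim and 10.01 for per, and the hour of dissection was not given in the sources used here.

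A few genes of cyclic AMP signalling rose. Pdfr, which encodes the receptor for the clock neuropeptide PDF and signals through cAMP, rose to 10.62 in adult CCs, against 3.47 in pupal CCs. The adenylyl cyclase gene Ac13E rose to 12.82 in adult CCs, against 4.90 in pupal CCs (difference 7.75). The kinase gene Pka-C3, an atypical catalytic subunit of protein kinase A, rose to 12.32 in adult CCs, against 4.38 in pupal CCs (difference 7.69). Another cyclase gene, Ac3, fell to 3.35 in adult CCs, against 8.26 in pupal CCs. In all, 3 of the 15 listed genes were higher, 1 lower and 11 neither, with a median of 0.88 (0.05 with equal totals, 3 higher and 3 lower), and this list was made after the values were seen. The serotonin receptor gene 5-HT2A, also chosen after its values were seen, rose to 12.26 in adult CCs, against 6.18 in pupal CCs. Nplp3, annotated as a neuropeptide-like precursor, rose to 16.72 in adult CCs, against 0.89 in pupal CCs and 11.52 in PRs.

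Genes of sugar and lipid use rose more often than they fell. Of 21 genes of glycolysis and pyruvate use, 5 were higher and 1 lower, with a median of 1.30 (0.56 with equal totals, 3 higher and 2 lower). Lactate dehydrogenase (Ldh) was at 6.03 in adult CCs and listed at 0 in pupal CCs and in PRs. Hex-A, the main hexokinase gene, rose to 10.84 in adult CCs, against 7.86 in pupal CCs, while Hex-C fell to 2.36, against 6.43. Of 23 genes of glucose, trehalose and lipid supply, 6 were higher and 3 lower, with a median of 0.89 (0.12 with equal totals). Treh, the trehalase gene that opens the main blood sugar of insects to glycolysis, rose to 12.22 in adult CCs, against 7.70 in pupal CCs. The acetyl-CoA carboxylase gene ACC and the fatty acid desaturase gene Desat1 rose to 11.06 and 10.40 in adult CCs, against 7.36 and 7.11 in pupal CCs. The glucose transporter gene Glut1 went the other way and fell to 6.998 in adult CCs, against 9.62 in pupal CCs.

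Outside these lists, several enzymes were among the largest rises. Ldsdh1, a dehydrogenase gene of lipid droplets, rose to 12.86 in adult CCs, against 2.36 in pupal CCs. Tat, the tyrosine aminotransferase gene, rose to 12.68 in adult CCs, against 2.35 in pupal CCs. The phenylalanine hydroxylase gene Hn, which makes tyrosine, rose to 9.85 in adult CCs, against 3.71 in pupal CCs. hoe1, which encodes a putative anion transporter, rose to 12.83 in adult CCs, against 4.45 in pupal CCs, and its relative hoe2, chosen after its values were seen, to 10.69, against 3.16. Osi9, of the Osiris family of cuticle-forming epithelia, rose to 12.39 in adult CCs, against 1.66 in pupal CCs, and was at only 3.05 in PRs. CG4962 and CG15739, which carry no name, were at 10.61 and 9.79 in adult CCs and listed at 0 in pupal CCs, and CG33205 rose to 12.08, against 4.10.

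Of the 12 glial effector genes of the study, which handle potassium, glutamate and energy, 4 were higher and 3 lower. Gs2, Ir, nrv2 and Ldh were higher, and nrv3, Eaat2 and Glut1 were lower. The median of the list was 0.95 (0.20 with equal totals, 3 higher and 3 lower). The study described these 12 genes as relatively highly expressed in adult CCs of this series, so their direction is not independent evidence. Gs2, the glutamine synthetase gene that recycles glutamate in glia, rose to 13.69 in adult CCs, against 5.66 in pupal CCs (difference 7.92). It is also one of the optic lobe glia markers here. Ir, which encodes the inwardly rectifying potassium channel Irk1, rose to 10.37 in adult CCs, against 5.59 in pupal CCs. Among the beta subunit genes of the sodium pump, nrv2 rose to 9.24 in adult CCs, against 6.42 in pupal CCs, and stood just under the threshold with equal totals (1.96). The beta subunit genes nrv1, which is not one of the 12, and nrv3 fell to 0.59 and 7.19 in adult CCs, against 6.67 and 10.34 in pupal CCs. Both were high in PRs (8.39 and 12.74). The alpha subunit gene Atpalpha, chosen after its values were seen, was at 12.69 in adult CCs and 12.14 in pupal CCs. The glutamate transporter gene Eaat2, also an optic lobe glia marker here, fell to 5.49 in adult CCs, against 8.08 in pupal CCs. It was at 12.55 in PRs. Across the wider list of 34 ion transporter genes, 7 were higher and 3 lower, and the median of 0.64 turned to -0.13 with equal totals, where 4 were higher and 4 lower. The chloride channel gene ClC-a rose to 8.06 in adult CCs, against 4.35 in pupal CCs, and the proton pump subunit gene Vha100-2 to 8.49, against 5.41.

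Immune genes rose more often than they fell. Of 38 measured genes, 13 were higher and 1 lower, with a median of 2.78 over the 20 members at 8 units or more (2.01 with equal totals, 10 higher and 2 lower). In the Toll pathway a protease cascade cleaves Spätzle, which binds the receptor Toll and frees the factors Dif and Dorsal from Cactus. Of 19 genes of that pathway, a list made after the values were seen, 11 were higher and 1 lower, with a median of 2.64 (1.90 with equal totals, 7 higher and 1 lower). SPE, the Spätzle-processing enzyme gene, rose to 8.84 in adult CCs, against 1.66 in pupal CCs, and the ligand gene spz rose to 8.66, against 5.27. Dif rose to 9.50 in adult CCs, against 5.93 in pupal CCs, and the protease gene grass to 8.80, against 5.21. The receptor gene Tl alone of this pathway fell, to 7.53 in adult CCs, against 9.77 in pupal CCs. The effector gene BomS2, a bomanin, rose to 7.67 in adult CCs, against 0.34 in pupal CCs, and was at 8.55 in PRs. Hemocyte markers summed to 2552 units in adult CCs and 2004 in pupal CCs, with atilla and crq among those that rose, though crq not with equal totals, and fat body markers summed to 174 and 298 units. The part of either cell type was not tested. PGRP-LA, PGRP-LC and PGRP-LF, neighbouring genes of peptidoglycan recognition proteins, rose to 10.78, 7.70 and 6.48 in adult CCs, against 3.98, 4.44 and 2.35 in pupal CCs, and the next gene, UGP, was higher as well, though not with equal totals or equal medians.

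Detoxification genes rose more often than they fell. Of 85 cytochrome P450 genes, 19 were higher and 3 lower, with a median of 0.86 (0.17 with equal totals, 12 higher and 4 lower). Cyp4c3 rose to 11.25 in adult CCs, against 3.25 in pupal CCs, and Cyp4p1 rose to 10.71, against 4.75. Cyp18a1, whose product inactivates ecdysone, was at 5.70 in adult CCs and listed at 0 in pupal CCs. Cyp6a9, Cyp6a20, Cyp6a8 and Cyp317a1 lie next to each other and were all higher, from 6.51 to 8.84 in adult CCs and from 1.81 to 4.76 in pupal CCs, although Cyp317a1 fell short of the threshold with equal totals. Cyp4g1 and Cyp4g15, which make cuticular hydrocarbons and serve glia, fell to 0.77 and 1.42 in adult CCs, against 5.34 and 5.47 in pupal CCs. Cyp4g15 is also an optic lobe glia marker here. Of 35 glutathione S-transferase genes 7 were higher and none lower, with a median of 1.18 (0.60 with equal totals, 3 higher and 1 lower), led by GstD9 at 7.54 in adult CCs and 2.15 in pupal CCs.

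Stress genes differed too. Of 22 heat shock and chaperone genes other than the small ones, 9 were higher and 1 lower, with a median of 1.12 (0.30 with equal totals, 8 higher and 2 lower). The co-chaperone genes DnaJ-1 and stv rose to 14.10 and 11.10 in adult CCs, against 10.23 and 7.47 in pupal CCs. The Hsp70 copies Hsp70Aa and Hsp70Ab were at 13.72 and 13.73 in adult CCs and both at 9.74 in pupal CCs, but these near-identical genes may share reads, and their separate values are uncertain. Small heat shock genes had 0 of 12 higher and 2 lower, with a median of -0.09 (-0.90 with equal totals, 2 lower). Hsp67Bc was listed at 0 in adult CCs and at 8.65 in pupal CCs, and Hsp67Ba fell to 1.36, against 8.51. Sesn, the sestrin gene, and Thor, the 4E-BP gene, both targets of Foxo, rose to 12.002 and 11.06 in adult CCs, against 6.91 and 6.18 in pupal CCs, and foxo itself rose to 8.76, against 4.61. Live tissue was dissociated for every sort, and the part of handling in these differences was not tested.

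**Figure D3:**
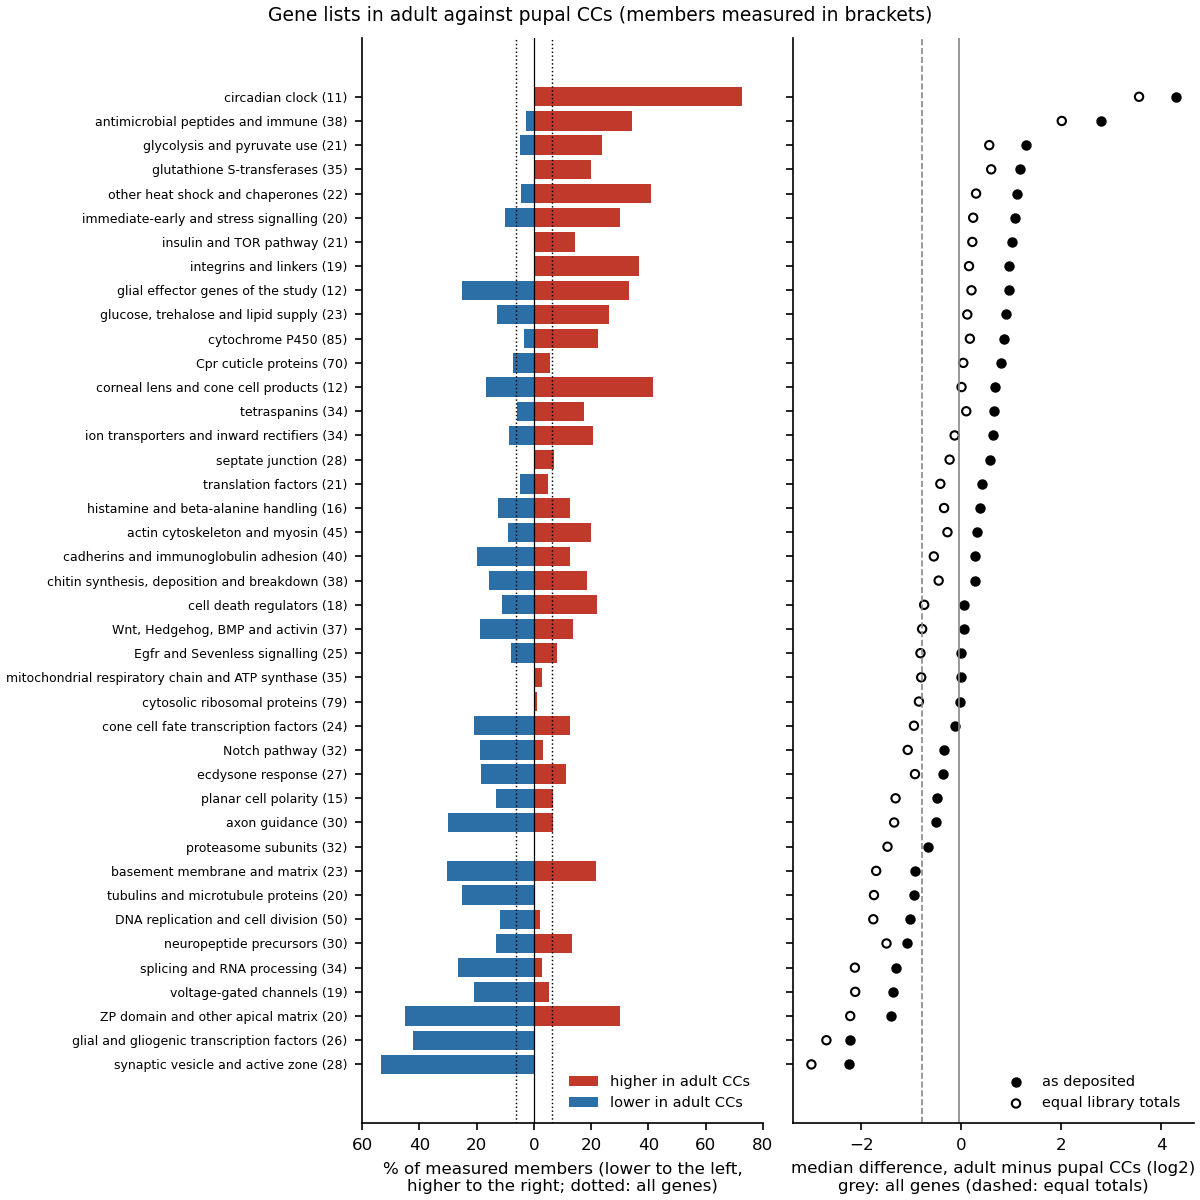
Left, share of the measured members of each gene list called higher (red, to the right) or lower (blue, to the left) in adult CCs, in percent, with dotted lines at 6.47% and 6.11% for all genes; right, median difference of adult minus pupal CCs over members at 8 units or more, on the deposited scale (filled) and with equal library totals (open), with grey lines at -0.05 and -0.79 for all genes. Only lists by function or family are shown, and those with few members at 8 units are left out. Among the lists shown, circadian clock genes (median 4.28) stand at the top, and synaptic genes (-2.24) at the bottom. Marker lists and lists made after the values were seen are not shown, and some had lower medians, such as neuronal transcription factors (-3.72).

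Many neuronal genes fell. Of 28 synaptic vesicle and active zone genes, 15 were lower and none higher, with a median of -2.24 (-2.996 with equal totals). The vesicular glutamate transporter gene VGlut fell to 2.90 in adult CCs, against 8.98 in pupal CCs (difference -5.48). The active zone gene brp (bruchpilot) and the vesicle GTPase gene Rab3 fell to 6.03 and 6.51 in adult CCs, against 10.06 and 10.22 in pupal CCs. The calcium sensor gene Syt4 fell to 2.60 in adult CCs, against 8.23 in pupal CCs. The 2 stoned genes stnA and stnB, which share 1 transcript and had identical values, were at 3.41 in adult CCs and 9.17 in pupal CCs and count as 1 measurement. Neuron markers, of which 12 of 14 were lower, share members with this group, VGlut and brp among them. Their fall is therefore not a separate observation, and the part of neurons in it was not tested.

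A like fall was seen in the Dpr, DIP, Beat and Side families, cell surface immunoglobulin proteins that pair in defined combinations between neurons and their targets. This list was made after the values were seen. Of 52 members, 41 were lower, 1 higher and 10 neither, and the median of the 50 at 8 units or more was -3.25 (-3.83 with equal totals). The furthest falls were those of beat-IIa, to 1.57 in adult CCs, against 8.92 in pupal CCs, and side-IV, to 2.35, against 9.03. A dpr gene, dpr12, fell to 3.78 in adult CCs, against 9.52 in pupal CCs. DIP-gamma was listed at 0 in adult CCs and at 7.58 in pupal CCs. The exception was DIP-epsilon, which rose to 9.22 in adult CCs, against 4.96 in pupal CCs. The family summed to 1675 units in the larval library, 8495 in the pupal and 1898 in the adult CC library, so its high level was at the pupal stage. Neuron markers fell with these families as well, and their part was not tested.

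**Figure D4:**
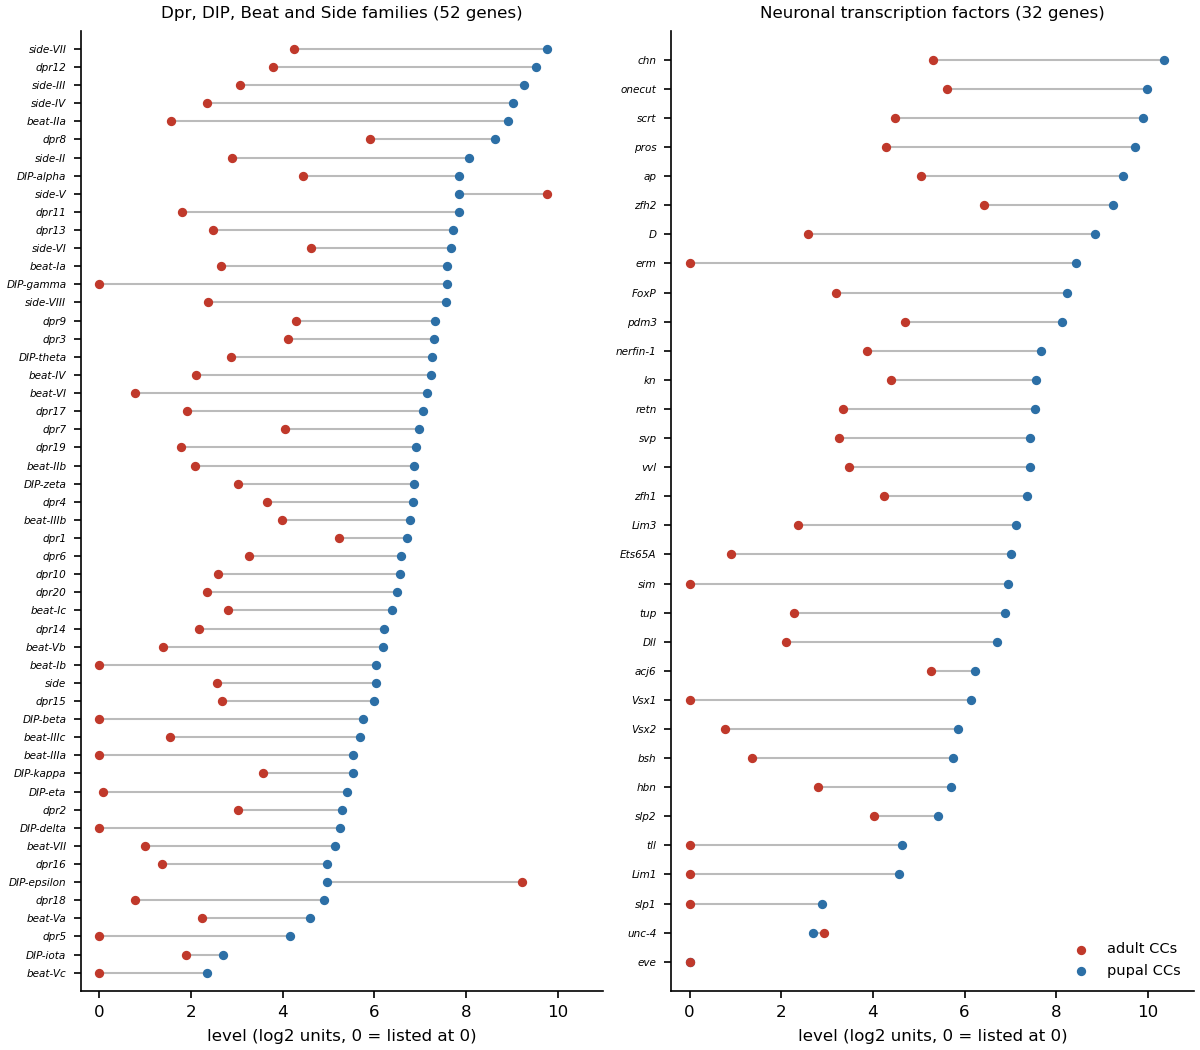
Level in adult CCs (red) and pupal CCs (blue) of the 52 Dpr, DIP, Beat and Side genes (left) and 32 neuronal transcription factor genes (right), in log2 of TMM-normalised units, sorted by the pupal level, with 1 library per stage. Adult points lie to the left of pupal points for nearly all genes, and DIP-epsilon (9.22 and 4.96) is an exception.

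Some guidance receptor and other neural surface genes fell. Of 30 axon guidance genes, 9 were lower, 2 higher and 19 neither, with a median of -0.51 (-1.34 with equal totals, 12 lower and none higher). The receptor genes otk and robo3 fell to 2.58 and 3.09 in adult CCs, against 10.49 and 9.77 in pupal CCs. The Netrin receptor gene unc-5 fell to 3.92 in adult CCs, against 8.88 in pupal CCs. Dscam2, an immunoglobulin gene of cell recognition with many neural roles, fell to 5.62 in adult CCs, against 12.64 in pupal CCs (difference -6.91). The synapse organiser genes Nrx-1 and Nlg2, chosen after their values were seen, fell to 3.17 and 4.27 in adult CCs, against 8.93 and 10.02 in pupal CCs. Of 19 voltage-gated channel genes, 4 were lower and 1 higher, with a median of -1.37 (-2.12 with equal totals, 11 lower and 1 higher). The calcium channel gene cac fell to 6.52 in adult CCs, against 9.52 in pupal CCs, while the hyperpolarization-activated channel gene Ih rose to 10.87, against 7.51.

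Microtubule genes fell or did not pass the rule, while the direction of actin and myosin genes depended on the scaling. Of 20 tubulin and microtubule genes, 5 were lower and none higher, with a median of -0.94 (-1.74 with equal totals, 8 lower). The tubulin genes betaTub60D and alphaTub84D fell to 5.27 and 6.88 in adult CCs, against 8.68 and 9.56 in pupal CCs. Of 45 actin and myosin genes, 9 were higher and 4 lower, and the median of 0.31 turned to -0.28 with equal totals, where 3 were higher and 9 lower. The filamin gene cher rose to 11.23 in adult CCs, against 6.83 in pupal CCs, and the actin nucleator gene spir to 12.03, against 9.02. The cytoplasmic actin gene Act42A fell to 5.94 in adult CCs, against 11.17 in pupal CCs.

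Transcription factor genes of CC fate did not move as a group. Of 24, 3 were higher, 5 lower and 16 neither, with a median of -0.13 (-0.94 with equal totals). The dPax2 gene sv rose to 13.62 in adult CCs, against 8.99 in pupal CCs and 8.39 in larval CCs. The retinal determination genes eya and so rose to 12.66 and 9.61 in adult CCs, against 8.47 and 7.34 in pupal CCs, but so did not pass with equal totals. In contrast, the furthest fall of the list was that of pros (difference -5.18), whose levels are given above. The genes dac, onecut and svp fell too, to 2.28, 5.62 and 3.26 in adult CCs, against 5.99, 9.97 and 7.43 in pupal CCs. The runt-domain gene lz, which acts upstream in CC fate, was at 4.09 in adult CCs and 6.27 in pupal CCs and passed as lower only with equal totals or equal medians.

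Among neuronal and gliogenic transcription factor genes, those that passed the rule fell. Of 26 glial and gliogenic genes, 11 were lower, none higher and 15 neither, with a median of -2.22 (-2.70 with equal totals), which turned to 0.45 over the members that reach a higher minimum level. The SoxB gene D (Dichaete) and the LIM-homeobox gene ap fell to 2.58 and 5.05 in adult CCs, against 8.84 and 9.47 in pupal CCs. The glial homeobox gene repo, also an optic lobe glia marker here, was at 0.77 in adult CCs and 5.58 in pupal CCs. Of 32 neuronal factor genes, a list made after the values were seen that shares members with the other, 25 were lower and none higher on both scales. The zinc-finger gene erm was listed at 0 in adult CCs and at 8.43 in pupal CCs, and scrt fell to 4.48, against 9.89. The median of this list was -3.72, beside a summed level of neuron markers of 1811 units in adult CCs and 15272 in pupal CCs.

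Signalling and hormone genes of pupal development changed in both directions. Of 32 Notch pathway genes, 6 were lower and 1 higher, with a median of -0.34 (-1.07 with equal totals). The E(spl) complex, which encodes bHLH repressors and Bearded-family proteins and is a direct target of Notch, held 5 of the 6 falls, led by E(spl)mdelta-HLH, which was listed at 0 in adult CCs and at 6.86 in pupal CCs. The receptor gene N was at 9.07 in adult CCs and 9.12 in pupal CCs. Of 27 genes of the ecdysone response, 22 of them at 32 units or more, 5 were lower and 3 higher. Their median was -0.36 (-0.92 with equal totals, 6 lower and 2 higher). ImpE2, an ecdysone-inducible gene of disc eversion, fell to 3.94 in adult CCs, against 11.14 in pupal CCs and 12.06 in larval CCs, while the juvenile hormone response gene Kr-h1 rose to 9.40, against 2.93. The ecdysone receptor gene EcR, chosen after its values were seen, was at 9.94 in adult CCs and 9.72 in pupal CCs. Of 37 Wnt, Hedgehog, BMP and activin genes, 33 of them at 32 units or more, 5 were higher and 7 lower. Their median was 0.05 (-0.78 with equal totals, 4 higher and 9 lower). Of 25 Egfr and Sevenless signalling genes, 24 of them at that level, 2 were higher and 2 lower. Their median was 0.002 (-0.82 with equal totals, 1 higher and 6 lower). Among all genes at 32 units or more, 14.3% were higher and 13.5% lower on the deposited scale. Among secreted signals, Wnt4 and hh fell to 3.70 and 1.94 in adult CCs, against 9.36 and 6.72 in pupal CCs. The EGF receptor ligand gene vn (vein) rose to 11.43 in adult CCs, against 7.71 in pupal CCs, and dpp to 9.59, against 6.39.

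Genes of division and of RNA processing fell more often than they rose. Of 50 replication and division genes, 6 were lower and 1 higher, with a median of -1.03 (-1.76 with equal totals, 12 lower and 1 higher). Of 21 insulin and TOR pathway genes, which control growth, 16 reached 32 units or more, 3 were higher and none lower. Their median was 1.01 (0.22 with equal totals, 2 higher and none lower). Among all genes at 32 units or more, 14.3% were higher and 13.5% lower. The Cdc25 phosphatase gene stg (string) was at 9.64 in the larval library and 8.18 in the pupal one, and fell to 3.44 in adult CCs. The only replication and division gene that rose was dap (dacapo), a cyclin-dependent kinase inhibitor gene, to 9.33 in adult CCs, against 5.34 in pupal CCs. Splicing and RNA processing genes had 9 of 34 lower and 1 higher, with a median of -1.30 (-2.13 with equal totals, 19 lower and 1 higher). Of these, fne, a neuronal RNA-binding gene, fell to 6.03 in adult CCs, against 9.85 in pupal CCs. The single rise was that of how, a STAR-family RNA-binding gene, to 12.77 in adult CCs, against 7.88 in pupal CCs.

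Other large falls belonged to single genes. The elongation factor gene eEF1alpha2 fell to 4.90 in adult CCs, against 12.94 in pupal CCs (difference -7.86), and it was at 12.22 in PRs. The heparin-binding growth factor gene miple1 fell to 4.23 in adult CCs, against 12.03 in pupal CCs, and its paralog miple2, chosen after its values were seen, to 2.58, against 8.86. The serpin gene Spn43Aa fell to 3.18 in adult CCs, against 11.53 in pupal CCs. Genes without a name were numerous here: CG2269, CG34247 and CG15028 fell to 1.41, 0.77 and 0.47 in adult CCs, against 10.56, 9.85 and 9.23 in pupal CCs. CG1850 and CG15765 fell to 5.85 and 3.04, against 12.77 and 10.50 in pupal CCs. CG43347 was listed at 0 in adult CCs and at 9.11 in pupal CCs.

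Large housekeeping groups passed the rule rarely. Of 79 cytosolic ribosomal protein genes, 1 was higher and none lower, with a median of -0.02 on the deposited scale and -0.85 with equal totals. Of 35 respiratory chain and ATP synthase genes, 1 was higher and none lower, with a median of -0.01 (-0.80 with equal totals). None of 32 proteasome subunit genes passed in either direction, but their median was -0.66, and with equal totals (-1.47) 7 were lower. The glycolytic gene Gapdh1 was at 7.02 in adult CCs and 7.03 in pupal CCs. The ribosomal and respiratory medians lay close to the median of all genes (-0.05, or -0.79 with equal totals) on both scales.

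The larval CC and PR libraries, which took no part in the calls, were read for the same genes. Of the 966 genes higher in adult CCs, 47.9% had 32 units or more in larval CCs, against 71.9% of the 6767 genes at that level in adult or pupal CCs. In PRs 69.0% of them had 32 units or more, against 66.4%. Of the 913 genes lower in adult CCs, 62.2% had 32 units or more in larval CCs and 44.4% in PRs. The genes that rose thus had a median level of 4.81 in larval CCs and 6.38 in PRs, and the genes that fell had 5.73 and 4.50. Larval CCs share genotype and sorting with pupal CCs, and PRs share the adult stage with adult CCs.

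The genes that changed were also compared by their structure, in an annotation that held 93.3% of the 6767 genes. Genes that fell had a median span of 6.48 kb from the first to the last annotated base (quartiles 2.73 and 22.3 kb), and genes that rose 4.57 kb (2.06 and 12.1 kb), against 3.81 kb for all 6767 genes (2.04 and 9.07 kb). A span over 20 kb was found for 27.3% of the genes that fell, 14.9% of those that rose and 11.98% of all. In the longest quartile of genes, 18.8% were higher and 22.6% lower, while in the shortest 14.3% were higher and 8.94% lower. With equal totals the shares were 11.3% higher and 30.4% lower in the longest quartile, and 8.17% and 16.5% in the shortest. Summed exon lengths differed less, with medians of 3.19 kb for genes that fell, 2.34 kb for genes that rose and 2.61 kb for all.

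**Figure D5:**
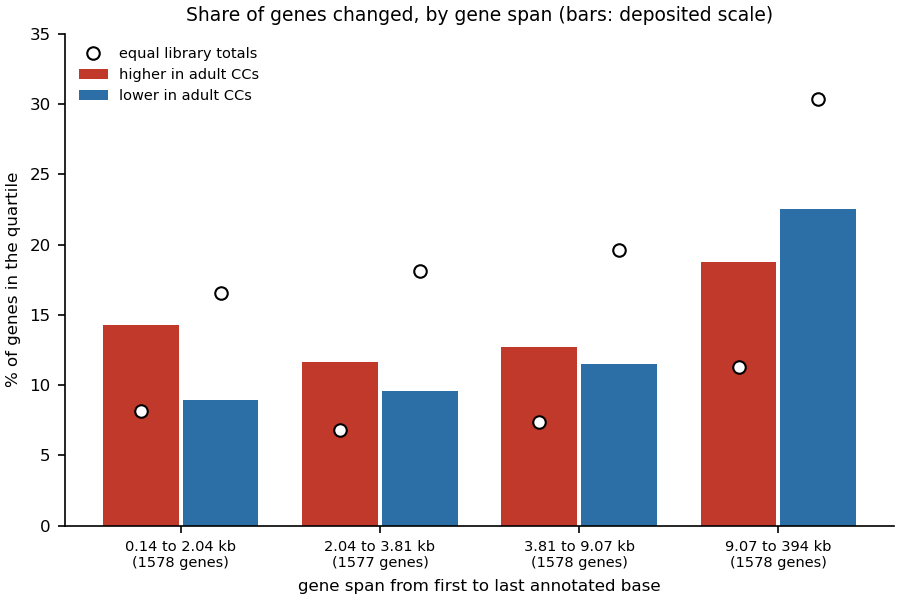
Share of genes, in percent, called higher (red, left bar) or lower (blue, right bar) in adult CCs in each quartile of gene span, among genes with 32 units or more in either library, on the deposited scale, with open circles for equal library totals. On the deposited scale the share of genes that were lower is 8.94% in the shortest and 22.6% in the longest quartile, and the share that were higher is 14.3% and 18.8%.

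Neighbouring genes on a chromosome were called higher together in 147 adjacent pairs and lower together in 86. The numbers to be expected without clustering were not worked out, so these pairs and the runs below are counts only. Runs of 4 or more neighbours were found 7 times among genes that rose and 0 times among genes that fell. Besides the Cyp6a, PGRP and Hsp70B genes, they held sls and zormin, which encode sarcomere and actin-binding proteins, at 12.53 and 12.35 in adult CCs and 10.31 and 7.23 in pupal CCs, of which sls fell short of the threshold with equal totals. The sls gene is also one of the muscle markers here. Whether adjacent genes shared reads could not be checked on these values.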

How the data were processed

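RNA of sorted cells was amplified with the NuGEN Ovation V2 system, made into Nextera libraries and sequenced by the authors, who mapped reads to dm3 (the submitters' notes name TopHat2 2.0 and Bowtie 1.0) and scaled the reads of each gene by TMM to whole-animal data. The deposited values are log2 levels of 4 groups with 1 library each. Of 14959 entries, 24 repeats at 0 were left out. Gene symbols came from Ensembl release 115 (BDGP 6), which matched 14177 of 14935 IDs and is on another build, so no coordinates are given.

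Values below 30 units lay within 0.02 of a whole multiple of a common step in 49.7% of cases in adult CCs and 38.4% in pupal CCs, so whole reads were not recovered, the depth is unknown, and no count test or interval is given.

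Differences of log2(value + 4) were computed with Python 3.11.15, numpy 2.4.6, pandas 2.3.3 and matplotlib 3.10.9. The rule was run on counts simulated from the pupal levels at a guessed depth, with sampling noise only. That run checks the code and cannot speak to amplification or to variation between real libraries. List medians used members at 8 units or more. Most genes were named by rule: the 15 largest differences per direction at 256 units or more, up to 6 called members per list, marker genes, the sorting genes and neighbours in runs. Some other named genes were chosen after their values were seen. The comparison, lists and rules were chosen with earlier results of these data known, and a gene may stand in several lists. Alternatives were added constants of 1 and 16 units, equal totals, equal medians, no minimum, a minimum of 256 units and an 8-fold rule.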

Additional observations from a re-analysis of the deposited data

How the results depend on the processing

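No paired analysis was possible because each group has 1 library. The 966 genes higher in adult CCs became 572 with equal library totals, 589 with the higher minimum level and 509 by the 8-fold rule. The 913 lower genes became 1565, 294 and 481 under these, and 596 with 16 units added. Other settings gave 772 to 1036 higher and 985 to 1135 lower. The higher minimum reversed the medians of glial and gliogenic transcription factors (0.45), neuropeptide precursors (2.62) and histone genes (-0.69), as it leaves fewer members. The histone and Hsp70 copies are near-identical and uncertain singly. Of 331 called genes that the naming rule took, 32 fell below the threshold with equal totals, 41 with 16 units added and 5 with equal medians, and none reversed. Equal totals moved 59 of 64 list medians by 0.5 or more. With 1 library a stage, no alternative speaks to biological variation.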
